A study of Mus musculus with 20 samples.

Results

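The collagen genes of the mouse were followed in 2 parts of the aged intervertebral disc: the nucleus pulposus (NP), the soft core of the disc, and the annulus fibrosus (AF), the layered ring around it. Members were all rows of the expression table whose symbol is Col, a number, the letter a and a number, which gave 44 of 51789 genes. Tissue came from 24-month-old BL6 mice that had been injected into the abdomen for 6 months, from 18 months of age, with DMSO alone (vehicle) or with MDL-800 in DMSO. The compound MDL-800 activates SIRT6, a chromatin deacylase. The 20 libraries form 4 groups of 5, vehicle and MDL-800 in each of NP and AF, and all groups received DMSO. The labels do not say whether the libraries of a group came from separate animals or whether animals were pooled, so p-values measure the spread between these libraries. Column headers of NP and AF share some numbers, and whether these mark the same animal is not given in the sources used here. The tissues were compared without pairing. The labels call the material both tissue dissected under a microscope and isolated cells.

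Collagens are proteins of 3 chains wound into a triple helix, which requires a small residue, glycine, at regular steps of 3. Fibrillar collagens assemble into the ropes that carry tension, FACIT collagens sit on the surface of fibrils, network and basement membrane collagens form sheets, and type VI collagen forms beaded filaments around cells. In the textbook disc, the AF is built of type I collagen lamellae and the NP of a proteoglycan gel held in a type II collagen mesh.

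By class the 44 genes were 11 fibrillar, 9 FACIT, 6 basement membrane, 6 beaded filament, 4 transmembrane, 3 network and 2 multiplexin collagens, the anchoring fibril gene Col7a1, and Col26a1 and Col28a1, set in no class. Values are FPKM (fragments of a gene for its length in kilobases and for the library's mapped total), divided by a factor per library. A gene was tested if it reached 1 FPKM in at least 5 of the 20 libraries, which kept 32 of the 44 members and 16383 genes in all. Every fibrillar, network and multiplexin gene was kept, with 7 of 9 FACIT, 3 of 6 basement membrane, 4 of 6 beaded filament and 2 of 4 transmembrane genes. A log2 fold change is on the log2(scaled FPKM + 1) scale, on which changes of low genes come out too small. "Higher" and "lower" are used of genes with an adjusted p below 0.05 from limma, a linear model with pooled variance, two-sided, adjusted by Benjamini-Hochberg over the 16383 genes.

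The symbol picks the members, and the triple helix repeat is visible in their transcripts without it. The repeats are shown for 3 members whose classes behaved differently in the disc: Col3a1 (fibrillar, the largest difference between tissues), Col6a3 (beaded filament, much RNA in both tissues) and Col4a1 (basement membrane). Each stretch is 90 nucleotides of the longest protein-coding transcript in GENCODE M21, read 5′ to 3′ inside the longest run of glycine codons, and the capitals mark GGN, the glycine codon, at every 9 nucleotides. They lie at 2203 to 2292 of the Col3a1 transcript, 6900 to 6989 of Col6a3 and 489 to 578 of Col4a1.
Col3a1: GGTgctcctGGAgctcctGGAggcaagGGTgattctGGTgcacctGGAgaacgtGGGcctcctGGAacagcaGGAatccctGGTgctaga
Col6a3: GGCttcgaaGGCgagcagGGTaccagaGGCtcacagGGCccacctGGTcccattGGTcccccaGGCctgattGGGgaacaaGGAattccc
Col4a1: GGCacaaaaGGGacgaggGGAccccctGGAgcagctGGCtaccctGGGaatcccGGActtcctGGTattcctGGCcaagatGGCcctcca

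All 44 members held an uninterrupted run of at least 20 such repeats. Among 13659 other tested genes the median longest run was 3 repeats and 13 genes reached 20. Fibrillar collagens stood clear of the other classes, which overlapped each other: fibrillar genes held 216 to 344 repeats (median 338), FACIT collagens 32 to 113, network collagens 60 or 61, basement membrane collagens 39 to 66, beaded filament collagens 37 to 87 and both multiplexins 30. The median GC content was 55.1% for the members against 49.3% for tested genes, and 39 of 44 members lay above that median.

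Windows of 250 nucleotides before a RefSeq transcript start were read for 35 of the 44 members from a RefSeq promoter table on build GRCm38.p6. The windows of 3 genes with different behaviour are shown: Col3a1, far lower in NP, Col6a3, alike in level in both tissues, and Col11a2, with the smallest p among members in the MDL-800 comparison in NP. Capitals mark the motif TATAAA or the motif GGGCGG on either strand, where the second reads CCGCCC when it lies on the other strand, and CCAAT was searched too. No window overlaps an exon of GENCODE M21. Their positions are chr1:45311288-45311537 on the plus strand for Col3a1, chr1:90843972-90844221 on the minus strand for Col6a3 and chr17:34038888-34039137 on the plus strand for Col11a2.
Col3a1: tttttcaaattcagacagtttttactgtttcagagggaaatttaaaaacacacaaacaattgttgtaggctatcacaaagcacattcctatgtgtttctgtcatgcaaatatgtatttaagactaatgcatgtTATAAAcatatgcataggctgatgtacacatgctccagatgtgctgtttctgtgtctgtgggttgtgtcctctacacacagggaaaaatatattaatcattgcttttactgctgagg
Col6a3: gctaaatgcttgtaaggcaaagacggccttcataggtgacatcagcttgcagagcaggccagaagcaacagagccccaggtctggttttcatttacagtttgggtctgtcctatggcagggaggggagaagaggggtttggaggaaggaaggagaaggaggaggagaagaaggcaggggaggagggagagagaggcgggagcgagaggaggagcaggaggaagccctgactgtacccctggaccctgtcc
Col11a2: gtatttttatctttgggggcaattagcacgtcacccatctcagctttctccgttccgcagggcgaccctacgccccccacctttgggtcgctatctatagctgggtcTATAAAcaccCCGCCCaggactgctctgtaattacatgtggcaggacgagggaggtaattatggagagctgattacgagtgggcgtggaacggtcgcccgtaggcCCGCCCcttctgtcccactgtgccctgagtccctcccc

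The Col3a1 window held TATAAA and neither of the other motifs, the Col6a3 window held none of the 3 on either strand, and the Col11a2 window held TATAAA and GGGCGG. Of 38 collagen windows 13.2% held TATAAA, against 12.4% of all 32851 windows. CCAAT was in 34.2% against 33.8%, and GGGCGG in 57.9% against 32.7%. These are matches of letters only.

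Estimated depth was 12.8 to 21.8 M fragments (M, megareads; median 19.7 M). For members below the filter 1 fragment corresponded to 0.0051 to 0.0196 FPKM, so low values rest on few fragments, and this precision covers counting error only. Summed levels of 7 NP markers and Noto were 25913 to 33030 scaled FPKM in the 10 NP libraries and 2512 to 15167 in the 10 AF libraries. The 7 tested were higher in NP in vehicle libraries, where 21.8% of all genes were higher. Of 7 AF markers 6 were lower, where 33.9% of all genes were lower. Libraries of the AF thus also held RNA of these markers, most of all AF vehicle library 9, and which cells it came from was not tested. Summed AF markers were 759 to 1536 scaled FPKM in the NP libraries and 2007 to 7145 in the AF libraries. AF vehicle library 8 stood apart in the collagens: its members summed to 8653 scaled FPKM, against 1768 to 2884 in the other 4 AF vehicle libraries. Without it the AF vehicle mean of that sum was 2507, and 19 members were still called lower in NP.

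The collagen RNA of NP was mostly type VI, that of AF mostly fibrillar. The 3 most abundant members in NP vehicle by mean were Col6a2, Col6a1 and Col6a3, encoding the 3 chains of the main type VI collagen, followed by Col2a1. In AF vehicle they were Col1a2, Col1a1, the 2 chains of type I collagen, and Col3a1, the chain of type III collagen, followed by Col2a1. Of the summed collagen FPKM, beaded filament genes made up 59.3% ± 2.22 (SD, n = 5) in the vehicle NP, 56.2% ± 4.44 with MDL-800, against 19.2% ± 4.60 in the vehicle AF and 14.3% ± 5.57 in the MDL-800 AF. Fibrillar genes made up 30.5% ± 2.40, 36.3% ± 3.98, 71.1% ± 5.96 and 76.4% ± 8.25 in the same order. For neither class did any NP library overlap any AF library. The shares are of FPKM, a quantity per transcript length, and as parts of 1 sum they are not independent of each other.

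**Figure D1:**
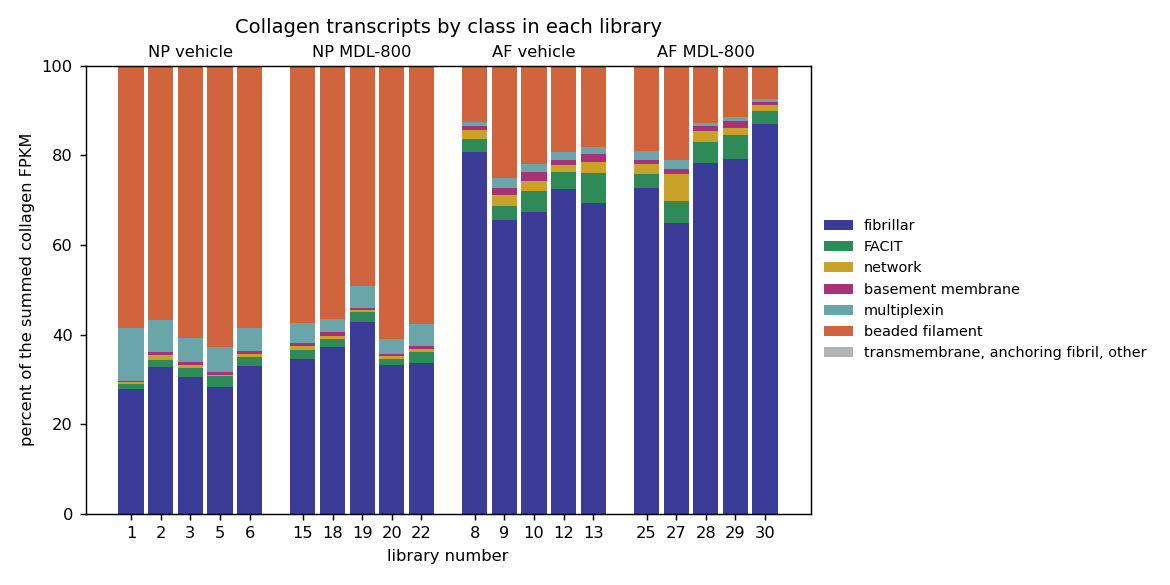
Share of each collagen class in the summed collagen FPKM (y axis, percent) in each of the 20 libraries (x axis, library number, 4 groups of 5); each bar is 1 library and colours are classes. Beaded filament genes fill 48.9% to 62.3% of each NP bar and 7.40% to 24.9% of each AF bar.

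Summed collagen RNA was 1027 ± 228 scaled FPKM (SD, n = 5) in the vehicle NP and 1172 ± 134 in the MDL-800 NP, and 3737 ± 2783 and 4237 ± 809 in the AF under the same treatments. The large SD of AF vehicle comes with library 8. No NP library reached the lowest AF library. The plot of group means of all 44 members shows wide gaps between tissues for type I, type III and several FACIT and sheet-forming genes, and close levels for Col6a1, Col6a2, Col6a3, Col5a3 and Col11a1.

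**Figure D2:**
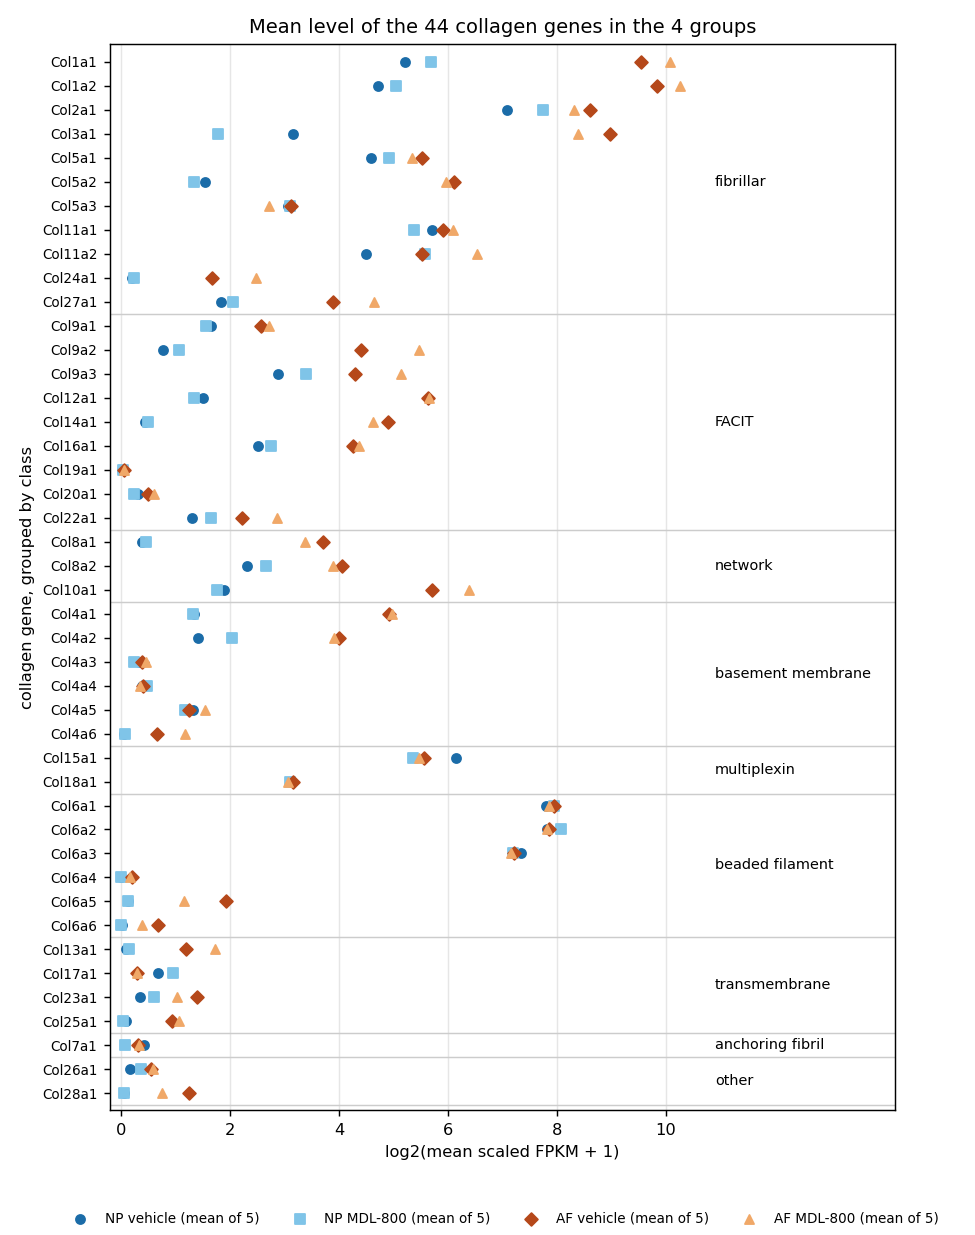
Mean level of each of the 44 collagen genes, log2(mean scaled FPKM + 1) on the x axis, by class on the y axis; each symbol is the mean of 5 libraries of 1 group. Col6a1, Col6a2 and Col6a3 lie close together in all 4 groups, and Col1a1, Col1a2, Col3a1 and Col5a2 lie far to the right in both AF groups.

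In vehicle libraries 19 of the 32 tested collagen genes were lower in NP than in AF, none was higher and 13 had no call. Of all tested genes 33.9% were lower and 21.8% higher. The median log2 fold change was -1.22 over the collagen genes and -0.08 over all tested genes. Groups did not overlap for the 19 genes called, against 41% of all genes. In either direction 55.7% of all genes were called. In MDL-800 libraries 22 were lower and none higher, where 37.2% of all genes were lower and 25.6% higher (62.8% in either direction), with a median of -1.39. The groups did not overlap for 19 of the members there, against 49.1% of all genes. The filter counted all 20 libraries, so a gene could be tested through AF alone. For such a gene, lower in NP is the direction the filter favours. Of the genes called in vehicle, Col14a1, Col8a1, Col24a1, Col13a1, Col23a1 and Col6a5 had means below 1 scaled FPKM in both NP groups. In bulk tissue, fewer cells of a type and less RNA per cell cannot be told apart.

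Markers of cells next to the disc moved the same way. In vehicle libraries all listed markers of bone (7), skeletal muscle (7), red blood cells (7), macrophages (6), fat (6) and endothelium (6) were lower in NP. So were 5 of 6 of nerve, where 33.9% of all genes were lower. No marker of these lists was at 0 throughout a group. For skeletal muscle NP and AF did not overlap for 1 of the 7 genes. Of 7 cartilage markers 3 were higher in NP and 2 lower, against 21.8% and 33.9% of all genes. Summed bone markers ran from 1.57 to 169 scaled FPKM over the 10 NP libraries and from 249 to 2070.5 over the 10 AF libraries. Bone cells also make type I collagen, vessels make Col4a1 and Col4a2, and the part of such cells in the collagen differences was not tested.

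**Figure D3:**
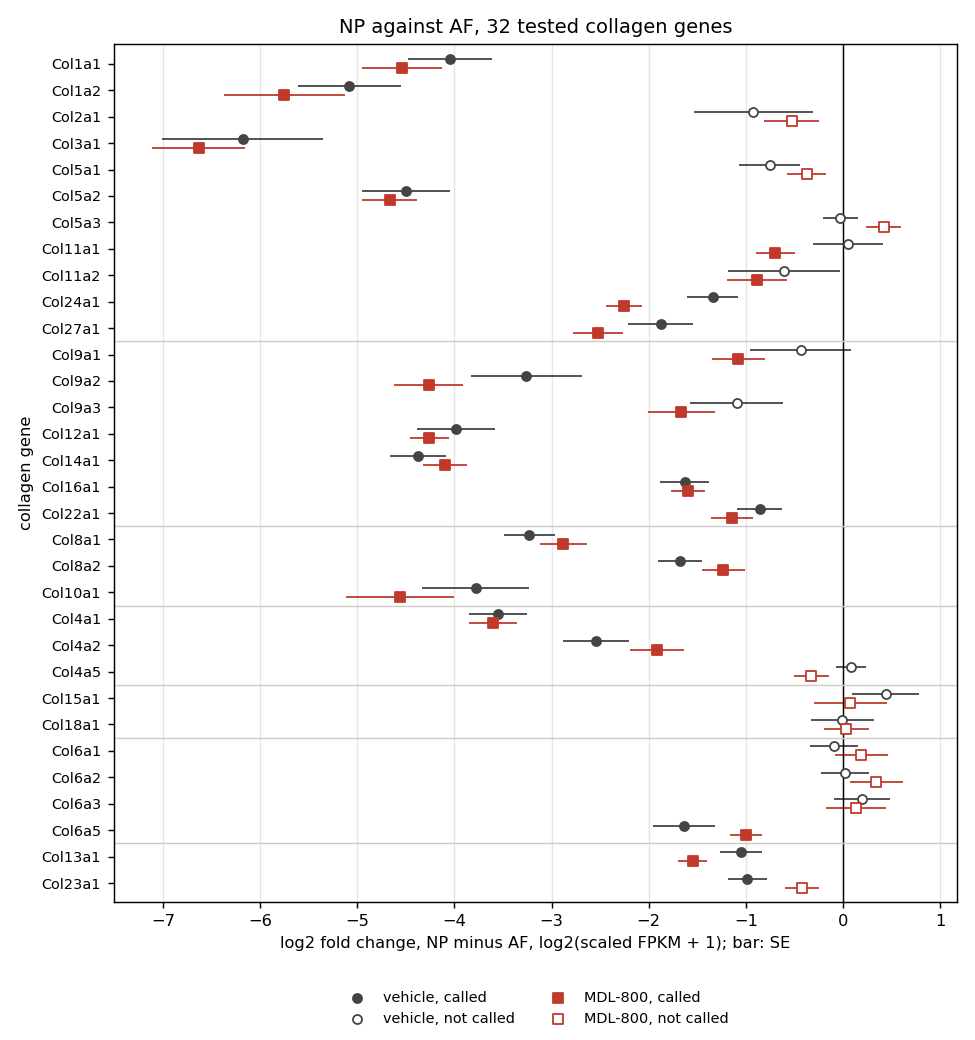
Log2 fold change of NP against AF (x axis, log2 scale, bars are SE) for the 32 tested collagen genes by class (y axis), in vehicle (circles) and MDL-800 libraries (squares), 5 against 5 each; filled symbols are called. All filled symbols lie left of 0, and Col6a1, Col6a2, Col6a3 and both multiplexins lie near 0.

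Among fibrillar collagens 6 of 11 were lower in NP in vehicle and 8 of 11 in MDL-800 libraries, against 33.9% and 37.2% of all genes. Col1a1 (chr11:94936224-94953042, plus strand), the first chain of type I collagen, was at a scaled FPKM of 26.0, 53.5, 29.5, 25.6 and 46.4 in the vehicle NP (libraries 1, 2, 3, 5 and 6). The vehicle AF (libraries 8, 9, 10, 12 and 13) held 1964, 339, 442, 454 and 514. The groups were far apart, and library 8 was far above the next. Its log2 fold change was -4.05 (limma adjusted p 3.27e-05, SE 0.43), and -3.61 without library 8. Under MDL-800 the NP (libraries 15, 18, 19, 20 and 22) held 26.5, 55.2, 108, 21.8 and 40.8 and the AF (libraries 25, 27, 28, 29 and 30) 989, 538, 1514, 1149 and 1166. NP MDL-800 library 19, the highest of its group, also had the most bone marker RNA of any NP library, 169 scaled FPKM. In AF with MDL-800, Col1a1 was highest in library 28 and summed bone markers in library 29, at 2070.5. The part of bone cells in these values was not tested.

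Col1a2 (chr6:4504814-4541544, plus strand), the other type I chain, had a larger fold change. Its level, in the same order of libraries, was 22.4, 44.0, 14.8, 7.06 and 38.3 in NP vehicle and 2285, 482, 632, 530.3 and 632 in AF vehicle. Under MDL-800 the NP held 12.3, 25.1, 86.8, 4.19 and 30.7 and the AF 1184, 650.4, 1483, 1336 and 1488. The log2 fold change between tissues was -5.08 (limma adjusted p 2.85e-05, SE 0.53) in vehicle and -5.75 in MDL-800 libraries. Type I collagen needs 2 chains from Col1a1 for each from Col1a2, a ratio of proteins that FPKM of RNA does not measure. The Col1a1 to Col1a2 ratio of FPKM was 0.79 ± 0.08 (SD, n = 5) in the vehicle AF and 0.87 ± 0.09 with MDL-800. It was 1.84 ± 1.06 and 2.43 ± 1.62 in the NP groups, where it ran from 1.16 to 5.20 and lay above every AF library.

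Col3a1 (chr1:45311538-45349706, plus strand) had the largest difference of all members. This chain forms type III collagen, which mixes with type I in pliable tissues. It was at 2.62, 29.0, 3.49, 0.256 and 3.97 in NP vehicle and at 1003, 105, 194, 839 and 348 in AF vehicle. NP MDL-800 libraries held 3.00, 4.60, 0.676, 0.413 and 3.37, and AF MDL-800 libraries 316, 433, 587, 199 and 137. Every AF library was above every NP library, and library 2 was far above the rest of NP. The log2 fold change was -6.18 (limma adjusted p 0.000123, SE 0.83) in vehicle and -6.63 in MDL-800 libraries. An annotated microRNA gene, Gm47302, shares 141 exon nucleotides with Col3a1 on the same strand and was listed at a mean of 341 scaled FPKM, so reads of Col3a1 may have been divided between both.

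Col5a2 (chr1:45374321-45503282, minus strand), a chain of the type V collagen that starts type I fibrils, is the neighbour of Col3a1, with 24614 nucleotides between the genes. It was at 0.922, 4.79, 1.16, 0.651 and 1.97 in NP vehicle and at 148, 24.6, 46.8, 70.5 and 52.3 in AF vehicle. The MDL-800 NP held 1.25, 1.31, 2.90, 0.286 and 1.92 and the MDL-800 AF 51.5, 71.9, 88.0, 47.5 and 47.4. NP and AF did not overlap in either treatment, and NP vehicle library 2 was the highest of its group for both neighbours. The log2 fold changes were -4.50 (limma adjusted p 2.43e-05, SE 0.46) and -4.66.

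Its partner chain Col5a1 did not separate the tissues in this way. Col5a1 was at 22.0, 20.6, 27.0, 21.2 and 23.8 in NP vehicle and 92.2, 21.5, 27.5, 47.1 and 35.4 in AF vehicle, and the groups overlapped. MDL-800 libraries held 25.6, 35.0, 27.5, 32.5 and 25.4 in NP and 43.6, 37.2, 60.0, 31.7 and 25.1 in AF. The log2 fold changes between tissues were -0.75 (limma adjusted p 0.0639, SE 0.32) and -0.38 (adjusted p 0.131). The first passed the threshold without AF vehicle library 9 or 10 (adjusted p 0.0180 and 0.0480), the second without AF MDL-800 library 30 (0.0286). In NP vehicle Col5a1 was at 22.9 ± 2.60 and Col5a2 at 1.90 ± 1.69 scaled FPKM (SD, n = 5). The third chain, Col5a3, was at 7.39 ± 1.30 (SD, n = 5) and 7.58 ± 1.35 scaled FPKM in NP without and with MDL-800 and at 7.66 ± 2.05 and 5.52 ± 1.49 in AF, with no call between tissues (log2 fold change -0.03 and 0.42, adjusted p 0.910 and 0.0685). Col5a3 was called higher in NP with MDL-800 under quantile normalization (0.80, adjusted p 0.00403).

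Col2a1 (chr15:97975602-98004695, minus strand), the chain of type II collagen of cartilage, was high in both tissues. It was at 231, 111, 128, 87.0 and 114 in NP vehicle and 1192, 123, 361, 88.8 and 171 in AF vehicle. Dosing with MDL-800 went with 209, 244, 175, 289 and 149 in NP and 418, 362, 334, 334 and 143 in AF. The tissues overlapped under both treatments, and the log2 fold changes of -0.92 (SE 0.61) and -0.53 (SE 0.28) had limma adjusted p of 0.224 and 0.128. The first was -0.35 without AF vehicle library 8, and the second passed without AF MDL-800 library 30 (-0.79, adjusted p 0.00426). Relative to type I the tissues separated fully: the Col2a1 to Col1a1 ratio of FPKM was 1.62 to 13.2 in the 10 NP libraries and 0.12 to 0.82 in the 10 AF libraries.

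**Figure D4:**
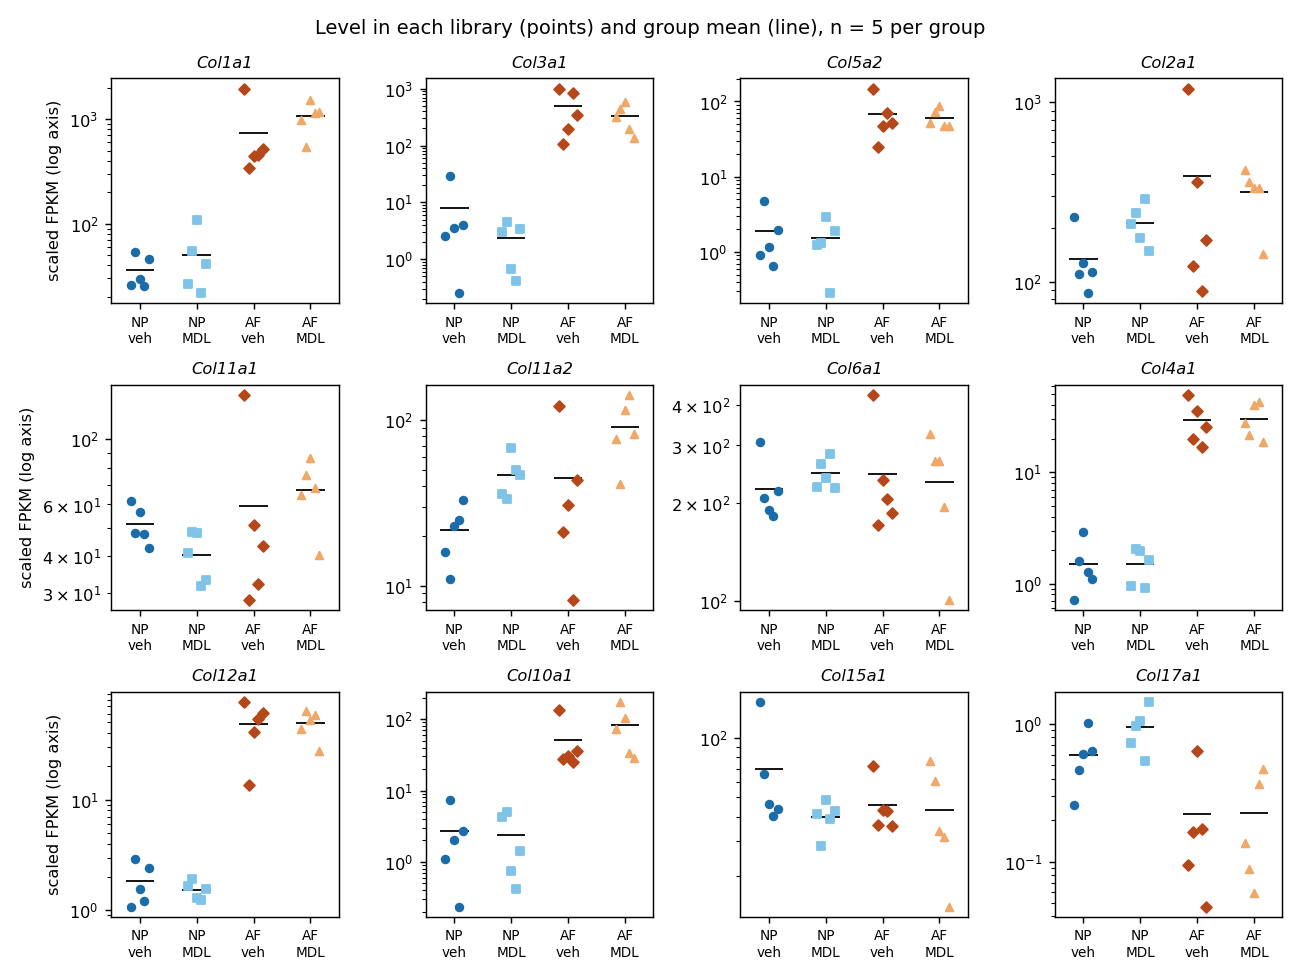
Level of 12 collagen genes in each library, scaled FPKM on a log axis (y), by group (x; veh is vehicle, MDL is MDL-800); points are libraries and lines are group means (n = 5). Col1a1, Col3a1, Col5a2, Col4a1, Col12a1 and Col10a1 separate NP from AF, Col2a1, Col11a1, Col6a1 and Col15a1 do not, and Col17a1 has higher means in NP.

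Col11a1 and Col11a2 encode chains of type XI collagen, the core of type II fibrils. Col11a1 was at 61.9, 48.1, 56.7, 47.6 and 42.7 in NP vehicle and 141, 28.5, 51.0, 32.2 and 43.3 in AF vehicle, with overlap and a log2 fold change of 0.05 (limma adjusted p 0.920, SE 0.36). Under MDL-800 its values were 41.1, 48.5, 47.9, 31.6 and 33.2 in NP and 64.6, 75.6, 86.4, 68.5 and 40.4 in AF, where it was lower in NP (-0.70, SE 0.20, limma adjusted p 0.0109). That call was lost with all 4 groups in the fit (adjusted p 0.0585). Col11a2 (chr17:34039437-34066685, plus strand) had no call in vehicle (-0.61, adjusted p 0.396, and -0.13 without AF vehicle library 8) and was lower in NP with MDL-800 (-0.88, SE 0.31, limma adjusted p 0.0275). The Col11a2 call was lost without NP MDL-800 library 15 or 18 or AF MDL-800 library 28 or 29 (adjusted p 0.0642, 0.0654, 0.0669 and 0.0628) and with all 4 groups in the fit (0.127).

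The last fibrillar genes are Col24a1 and Col27a1, encoding minor fibrillar chains found in bone and in cartilage. Both were lower in NP. Col24a1 was at 0.150 ± 0.106 scaled FPKM (SD, n = 5) in NP vehicle and 2.16 ± 1.56 in AF vehicle (log2 fold change -1.34, limma adjusted p 0.00143), and at 0.173 ± 0.278 and 4.58 ± 1.15 with MDL-800 (-2.25). Col27a1 was at 2.06, 2.11, 2.97, 2.71 and 3.05 in NP vehicle and 22.2, 7.59, 11.1, 5.75 and 22.4 in AF vehicle (-1.88, SE 0.33, limma adjusted p 0.000736). MDL-800 libraries held 3.08, 4.10, 3.57, 2.68 and 2.23 in NP and 17.8, 22.0, 35.3, 31.9 and 12.8 in AF (-2.52). The lowest AF value of Col27a1, 5.75, was above the highest NP value.

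FACIT collagens were lower in NP for 5 of 7 tested genes in vehicle and for all 7 in MDL-800 libraries. Of all genes 33.9% and 37.2% were lower. In vehicle libraries the largest fold changes were those of Col14a1 and Col12a1, which coat type I fibrils in tendon-like tissue. Col14a1 (chr15:55307750-55520803, plus strand) was at a scaled FPKM of 0.30, 0.619, 0.486, 0.0592 and 0.277 in NP vehicle and 35.8, 11.2, 31.5, 29.9 and 35.4 in AF vehicle. Under MDL-800 the NP held 0.677, 0.400, 0.162, 0.0741 and 0.731 and the AF 16.9, 26.0, 29.2, 30.4 and 15.2. No NP library reached 1 FPKM and no AF library was below 11.2. In vehicle libraries the log2 fold change was -4.38 (SE 0.29), and its limma adjusted p of 3.98e-06 was the smallest of the members. AF vehicle library 9, the lowest of its group, was also the AF library with the most NP marker RNA, whose part in this value was not tested.

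Col12a1 (chr9:79598991-79718831, minus strand) was at 1.08, 2.92, 1.56, 1.20 and 2.42 in NP vehicle and 76.1, 13.7, 40.7, 53.2 and 60.3 in AF vehicle. Its MDL-800 values were 1.67, 1.91, 1.28, 1.24 and 1.54 in NP and 43.4, 63.3, 52.6, 58.3 and 27.6 in AF. The log2 fold changes were -3.98 (limma adjusted p 2.22e-05, SE 0.40) and -4.26, with no overlap. Of the other fibril-surface genes, Col16a1 was at 4.73 ± 0.25 and 18.0 ± 7.36 scaled FPKM (SD, n = 5) in NP and AF vehicle (-1.63, limma adjusted p 0.000319). Col22a1, known from tissue junctions, was at 1.47 ± 0.38 and 3.68 ± 1.85 (-0.86, adjusted p 0.00945), a call lost with quantile normalization (-0.35, adjusted p 0.230).

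The 3 chains of type IX collagen, which decorates type II fibrils in cartilage, behaved unequally. Col9a2 was at 0.279, 0.196, 0.850, 0.197 and 2.02 in NP vehicle and 44.9, 6.01, 11.4, 4.94 and 33.7 in AF vehicle. MDL-800 libraries held 0.836, 0.957, 2.05, 0.413 and 1.18 in NP and 26.1, 32.5, 80.6, 55.7 and 20.2 in AF. It was lower in NP in both (log2 fold change -3.26, SE 0.57, limma adjusted p 0.000635, and -4.27), without overlap.

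Col9a3 was at 5.65, 4.29, 7.53, 8.18 and 6.03 in NP vehicle and 37.6, 9.01, 16.0, 3.82 and 26.2 in AF vehicle. Its MDL-800 values were 8.26, 5.00, 14.7, 8.55 and 11.1 in NP and 24.4, 22.0, 55.0, 50.2 and 18.3 in AF. It had no call in vehicle (-1.09, SE 0.48, limma adjusted p 0.0740) with AF vehicle libraries that overlapped NP, and passed without AF vehicle library 12 (adjusted p 0.00454). It was lower in NP with MDL-800 (-1.67, SE 0.34, limma adjusted p 0.00155). Exons of Col9a3 and of Tcfl5 on the opposite strand share 234 nucleotides, and the strand setting of the counting is not given in the sources used here. Col9a1 was at 2.13 ± 0.76 in NP vehicle and 4.93 ± 6.44 in AF vehicle with no call (-0.43, adjusted p 0.505, and 0.08 without AF vehicle library 8). It was lower in NP with MDL-800 (-1.08, limma adjusted p 0.00546), a call lost under quantile normalization (-0.58, adjusted p 0.0784).

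All 3 network collagens were lower in NP under both treatments, where 33.9% (vehicle) and 37.2% (MDL-800) of all genes were lower. Col10a1 (chr10:34389981-34397085, plus strand), the type X collagen of hypertrophic cartilage, was at 1.10, 7.47, 2.03, 0.237 and 2.67 in NP vehicle and 135, 27.8, 30.9, 25.2 and 35.6 in AF vehicle. In MDL-800 libraries it was at 4.24, 5.01, 0.747, 0.413 and 1.44 in NP and 72.2, 173, 104, 33.7 and 28.8 in AF. The log2 fold changes were -3.78 (limma adjusted p 0.000205, SE 0.55) and -4.56, and the first was -3.35 without AF vehicle library 8. Type VIII collagen, a sheet-forming collagen of vessels and of the cornea, has 2 chains: Col8a1 was at 0.312 ± 0.199 in NP and 12.0 ± 4.81 in AF vehicle (SD, n = 5; difference -3.23, limma adjusted p 7.69e-06), Col8a2 at 3.98 ± 0.78 and 15.5 ± 5.32 (-1.68, adjusted p 0.000122).

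Basement membrane collagens split as well. Col4a1 (chr8:11198423-11312826, minus strand) and Col4a2 (chr8:11312805-11449287, plus strand), the common pair, lie head to head with starts 21 nucleotides apart. Col4a1 was at 0.718, 1.59, 2.88, 1.26 and 1.11 in NP vehicle and 49.0, 19.9, 35.5, 17.0 and 25.4 in AF vehicle. MDL-800 libraries held 0.956, 2.05, 1.95, 0.910 and 1.62 in NP and 27.6, 21.7, 40.2, 42.8 and 18.9 in AF. The log2 fold changes were -3.55 (limma adjusted p 9.24e-06, SE 0.30) and -3.60, with no overlap. Col4a2 was at 1.65 ± 0.83 in NP vehicle and 15.0 ± 6.41 in AF vehicle (-2.54, adjusted p 0.000120), and at 3.08 ± 1.63 and 14.1 ± 4.46 with MDL-800 (-1.91). Summed endothelial markers, 1.69 to 8.27 scaled FPKM in the 10 NP libraries and 48.6 to 110.3 in the 10 AF libraries, moved with this pair, and their part in it was not tested.

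Col4a5, a chain of specialised basement membranes on the X chromosome, was low and alike in both: 1.51 ± 0.46 scaled FPKM in NP vehicle and 1.36 ± 0.33 in AF vehicle, and 1.27 ± 0.21 and 1.91 ± 0.72 with MDL-800. Its log2 fold change between tissues was 0.08 (limma adjusted p 0.671, SE 0.16) in vehicle and -0.33 (adjusted p 0.131) with MDL-800. It was called higher in NP vehicle only with quantile normalization (0.54, adjusted p 0.0127), a scaling that raised the median log2 fold change of all genes by 0.27. With MDL-800 it passed as lower in NP without AF library 30 (adjusted p 0.0147).

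The 3 main type VI chains were an exception to the lower levels in NP. Col6a1 (chr10:76708792-76726168, minus strand) was at 308, 207, 189.8, 182 and 217 in NP vehicle and 427, 172, 235, 206 and 187 in AF vehicle. Libraries with MDL-800 held 224, 264, 238, 283 and 223 in NP and 325, 269, 269, 195 and 101 in AF. The tissues overlapped, and the AF values reached both above and below those of NP. The log2 fold change in vehicle was -0.09, with a 95% interval of -0.63 to 0.44 (limma adjusted p 0.770).

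Its neighbour Col6a2 (chr10:76595762-76623630, minus strand) was at 319.6, 202, 199, 179.8 and 228 in NP vehicle and 407, 191, 216, 166 and 174 in AF vehicle. MDL-800 libraries held 237, 276, 255, 331 and 241 in NP and 344, 244, 249, 189 and 103 in AF. The Col6a2 difference in vehicle was 0.02 on the log2 scale (95% interval -0.53 to 0.57). The Col6a1 to Col6a2 ratio of FPKM stayed between 0.86 and 1.24 in all 20 libraries. Col6a3 (chr1:90765923-90843971, minus strand), the largest of the 3 chains, was at 196, 164, 199, 134 and 109 in NP vehicle and 239.9, 74.4, 123, 178 and 121 in AF vehicle. Its MDL-800 values were 145, 152, 110.4, 198 and 117 in NP and 158, 208, 181, 94.1 and 63.1 in AF. The difference in vehicle was 0.20 (95% interval -0.45 to 0.84). None of the 3 was called in any comparison. Between tissues the 95% intervals reached 0.84 in vehicle (Col6a3) and 0.94 in MDL-800 libraries (Col6a2) on the log2 scale.

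Another type VI chain, Col6a5, did differ. It was at 0.0914 ± 0.121 in NP vehicle and 2.78 ± 1.93 in AF vehicle (SD, n = 5; limma adjusted p 0.00133 for a log2 fold change of -1.63), and at 0.0915 ± 0.116 and 1.22 ± 0.514 with MDL-800. Col6a4 and Col6a6, its neighbours on chromosome 9, were below the filter and were also at lower levels in NP: Col6a4 was listed at 0 in all 5 NP MDL-800 libraries and reached 0.232 in AF vehicle.

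The multiplexins of the vessel and muscle basement membrane zone, which carry endostatin-like ends, were not called. Col15a1 was at 151, 65.8, 46.1, 40.2 and 43.9 in NP vehicle and 72.0, 36.3, 43.0, 42.8 and 35.8 in AF vehicle, where library 1 of NP and library 8 of AF were the high ones. Libraries with MDL-800 held 41.1, 28.3, 48.5, 39.1 and 42.5 in NP and 76.7, 60.9, 33.9, 31.5 and 14.1 in AF. Its log2 fold change between tissues was 0.44 (limma adjusted p 0.30, SE 0.34) and 0.07. Col18a1 was at 7.60 ± 3.53 in NP vehicle and 7.88 ± 4.56 in AF vehicle. Of the transmembrane collagens, Col13a1 was at 0.0598 ± 0.0540 and 1.29 ± 0.775 (-1.05, limma adjusted p 0.00166) and Col23a1 at 0.273 ± 0.0641 and 1.61 ± 0.773 (-0.99, adjusted p 0.00161). With MDL-800 the Col23a1 difference was -0.42 (adjusted p 0.0534) and passed without NP MDL-800 library 19 (adjusted p 0.00860).

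The 12 members below the filter were Col4a3, Col4a4, Col4a6, Col6a4, Col6a6, Col7a1, Col17a1, Col19a1, Col20a1, Col25a1, Col26a1 and Col28a1, and none exceeded 2.37 scaled FPKM in any library. Col17a1, the transmembrane collagen of hemidesmosomes, had higher group means in NP than in AF under both treatments: 0.597 ± 0.279 and 0.945 ± 0.343 in NP vehicle and MDL-800, against 0.223 ± 0.238 and 0.225 ± 0.184 in AF. Tested without the filter on low values, 6 of the 12 were lower in NP in vehicle (Col4a6, Col6a4, Col6a6, Col25a1, Col26a1 and Col28a1) and none higher, where 22.3% of all genes were lower and 12.7% higher. With MDL-800 6 were lower (Col4a6, Col6a4, Col6a6, Col20a1, Col25a1 and Col28a1) and 1 higher, against 24.8% and 15.3%. Col17a1 was that gene, among 30380 tested (log2 fold change 0.66, limma adjusted p 0.00355), and had no call in vehicle (0.39, adjusted p 0.0676). It was picked out after its values were seen.

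No collagen gene was called between MDL-800 and vehicle in NP. Of the 32, 0 passed the threshold, where 0.25% of all genes (41) did, 0.232% higher and 0.0183% lower. The log2 fold change was positive for 22 and negative for 10 members, where 42.6% of all genes were positive, and the median was 0.05 against -0.03 for all tested genes. At an unadjusted p below 0.05 there were 5 members, against 14.1% of all genes. These were Col11a2, Col2a1, Col5a1, Col22a1 and Col11a1, and the first 4 had positive signs. The smallest adjusted p was 0.101, for Col11a2.

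The scaled FPKM of Col11a2 was 16.0, 11.0, 23.1, 25.0 and 32.8 in NP vehicle and 35.9, 33.5, 67.5, 50.2 and 46.7 in NP MDL-800. All 5 MDL-800 libraries were above all 5 vehicle libraries, the only member for which these groups did not overlap, against 4.5% of all genes. The means were 21.6 ± 8.37 and 46.7 ± 13.6 (SD, n = 5), and the log2 fold change of 1.12 (SE 0.28) did not pass, at a limma adjusted p of 0.101. Leaving out 1 library at a time gave 0.92 to 1.29, with adjusted p of 0.0527 to 0.240. Col2a1 had a log2 fold change of 0.71 (limma adjusted p 0.237, SE 0.25), Col5a1 of 0.33 (adjusted p 0.199), Col22a1 of 0.36 (adjusted p 0.207) and Col11a1 of -0.35 (adjusted p 0.311). The 2 type XI chains had opposite signs in NP. The Col11a1 to Col11a2 ratio of FPKM in NP was 2.78 ± 1.29 (SD, n = 5) without MDL-800 and 0.93 ± 0.35 with it. It ranged from 1.30 to 4.35 and from 0.63 to 1.45. In AF, where both chains had positive signs, the ratio was 1.81 ± 1.19 and 0.88 ± 0.56. The AF groups overlapped, with ranges of 1.00 to 3.90 and 0.49 to 1.85.

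NP libraries also differed in how their values depended on GC content. The slope of a library's log2 deviation per 10 percentage points of GC was -0.28 to -0.01 with vehicle and 0.02 to 0.09 with MDL-800, without overlap. NP vehicle libraries 1 and 2 were at -0.285 and -0.278, and libraries 3, 5 and 6 at -0.026, -0.0495 and -0.007. In AF the slope was -0.238 in vehicle library 12, -0.106 in MDL-800 library 27 and 0.03 to 0.14 in the others. The Col11a1 to Col11a2 ratio was 3.86 and 4.35 in NP vehicle libraries 1 and 2 and 3.90 in AF vehicle library 12. The part of GC in this ratio was not tested. Transcripts of Col11a2, Col2a1 and Col5a1 are 62.9%, 62.2% and 58.0% GC, and those of Col11a1 48.0%. With the GC trend of each library removed, the NP fold changes were 0.64 for Col11a2 (limma adjusted p 0.233), 0.26 for Col2a1, 0.06 for Col5a1 and -0.29 for Col11a1.

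**Figure D5:**
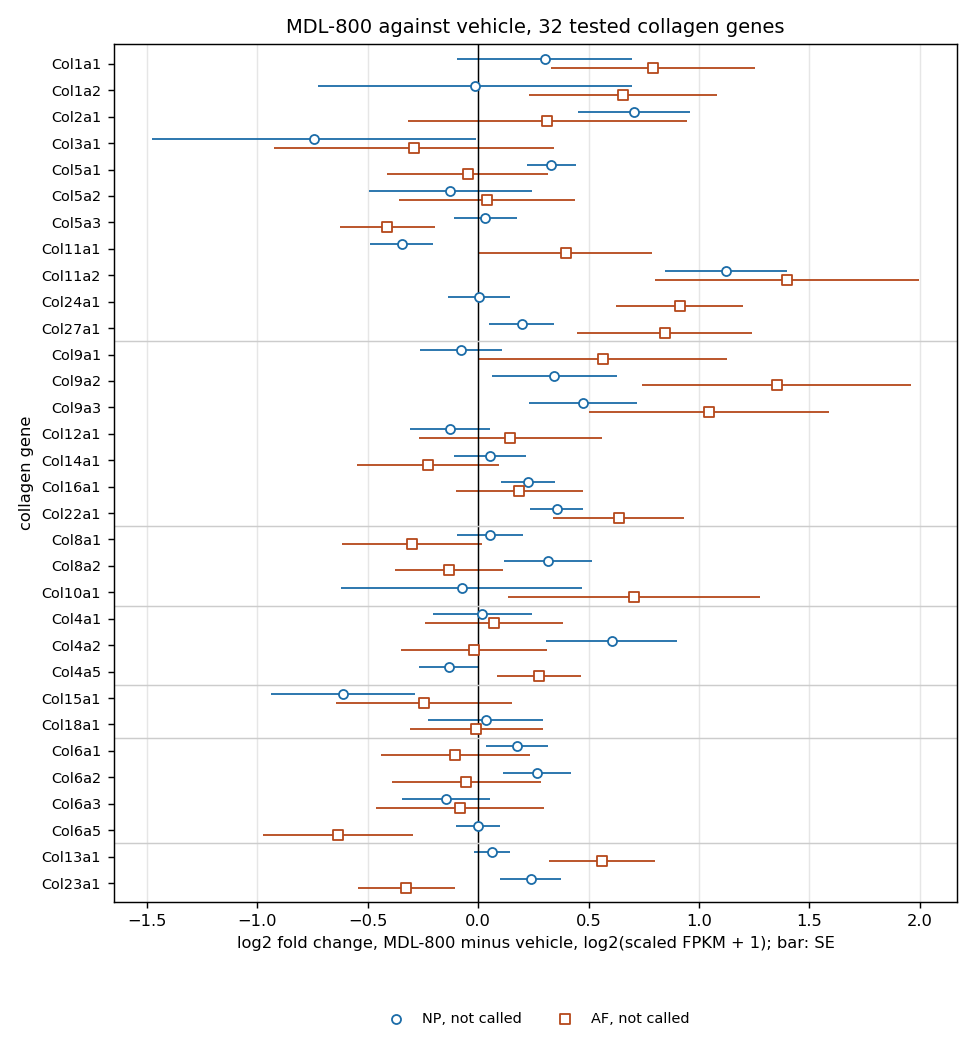
Log2 fold change of MDL-800 against vehicle (x axis, log2 scale, bars are SE) for the 32 tested collagen genes by class (y axis), in NP (circles) and AF (squares), 5 against 5 libraries each. No gene is called, so every symbol is open; Col11a2 lies at 1.12 in NP and 1.40 in AF.

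In AF the MDL-800 comparison also had no collagen call, and no call among all 16383 genes (0%). At an unadjusted p below 0.05 there were 4 members, Col24a1, Col13a1, Col11a2 and Col9a2, against 1.65% of all genes (270), and all limma adjusted p were 1. Positive signs were seen for 18 of 32 members and 52.6% of all genes, with a median of 0.11 against 0.01 for all genes. No member had groups without overlap, against 0.226% of all genes. Col11a2 was at 121, 21.2, 30.9, 8.25 and 43.3 with vehicle and 77.1, 40.9, 116, 141 and 82.6 with MDL-800, overlapping groups with a log2 fold change of 1.40 (SE 0.60). Col9a2 had 1.35 (SE 0.61), Col9a3 1.05 (SE 0.54), Col24a1 0.91 (SE 0.29), Col27a1 0.85 (SE 0.40), Col1a1 0.79 (SE 0.46) and Col10a1 0.71 (SE 0.57). Without AF vehicle library 8 these were 1.88 for Col11a2, 1.23 for Col1a1 and 1.14 for Col10a1, all still with an adjusted p of 1. AF vehicle library 12, the lowest for Col11a2 at 8.25, had a GC slope of -0.238. Over all alternatives, GC trend removal among them, the Col11a2 fold change in AF was 0.95 to 1.88. Summed bone markers were at 664 ± 330 scaled FPKM (SD, n = 5) with vehicle and 1526 ± 516 with MDL-800, with 0 of 7 called. Their part in the AF fold changes was not tested.

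The treatment effects in NP and AF were compared directly in a fit of all 4 groups. No member was called and no gene of all 16383 (0%). Only Col24a1 (NP minus AF -0.91, SE 0.33) and Col23a1 (0.56, SE 0.27) had an unadjusted p below 0.05, with limma adjusted p of 1.00, against 3.73% of all genes (611). For Col11a2 the difference of effects was -0.28 (95% interval -1.73 to 1.18). For Col1a1 it was -0.49 (-1.83 to 0.84). For these 2 genes a difference of 1 in the negative direction lies within the interval, and for Col11a2 also 1 in the positive direction. On simulated data of 16383 genes the same fit found 62.5% of differences of 1 and 81.5% of differences of 2. These were placed only in genes above a set mean level, with each gene's spread pooled over all 4 groups. The rates do not cover low genes or groups with a wider spread.

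Genes that make, bind and break down collagen did not all follow the collagens. In vehicle libraries, of 18 genes of collagen folding and hydroxylation 5 were higher and 5 lower in NP, near the 21.8% and 33.9% of all genes, with P4ha3, a prolyl hydroxylase subunit, at a log2 fold change of 1.67 (limma adjusted p 0.000278) and P3h3, a prolyl 3-hydroxylase, at -2.90 (1.20e-05). Of 6 cross-linking genes 1 was higher, Loxl2 (0.86, adjusted p 0.0179), and 3 were lower, led by Lox (-4.27, adjusted p 2.90e-05), the enzyme that starts cross-links. Of 10 genes of secretion and propeptide cleavage 6 were lower and none higher, with Adamts3, the procollagen II N-proteinase, at -1.67. All 7 tested collagen-degrading proteases were lower, with the gelatinase Mmp2 at -5.56 (limma adjusted p 2.18e-05). Collagen receptors went the other way: 5 of 8 were higher in NP, led by the collagen-activated kinase Ddr2 (1.54, adjusted p 0.000220), and 2 were lower, led by the integrin chain Itga11 (-1.67).

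In MDL-800 libraries the counts for these lists, in the same order, were 5 higher and 6 lower of 18, 2 and 3 of 6, 0 and 5 of 10, 0 and 7 of 7, and 5 and 2 of 8, where 25.6% of all genes were higher and 37.2% lower. No gene of the 5 lists was called in either comparison of MDL-800 with vehicle or in the difference between tissues.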

How the data were processed

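Per the labels' protocols, 50 ng of total RNA went into each stranded, ribosomal-depleted library, amplified over 14 PCR cycles. The authors deposited FPKM values in 1 table; the submitters' processing notes name STAR 2.7.11b and mm10, and the annotation and counting program are not given in the sources used here. All 20 columns were matched by name. FPKM were divided by median-ratio factors over 11308 genes (0.933 to 1.062). limma 3.58.1 (R 4.3.3) was fitted to log2(scaled FPKM + 1) with a mean-variance trend and only the compared groups, genes with at least 1 FPKM in 5 libraries being tested. On simulated data of 16383 genes it found 77% of changes of 1 on the log2 scale between tissues in vehicle libraries. It found 81.5% for MDL-800 in NP and 73.5% in AF. For Col11a2 the SE was larger in AF than in NP, and the AF rate does not cover such members. The changes were placed only in genes above a set mean level, with each gene's spread pooled over all 4 groups. The rates do not cover low genes or groups with a wider spread. Depth was estimated from steps of low values. Coordinates are GENCODE M21 (GRCm38). Python 3.11.15 was used for descriptions. Members with a group mean of at least 20 are given per library; of each pathway list the called genes with the largest rise and fall are named. The members, classes and lists were chosen with earlier results of these data known. Promoter entries were not used for Col1a1, Col2a1, Col4a3, Col5a2, Col9a3, Col12a1, Col14a1, Col22a1 and Col26a1. Alternatives were pseudocount 0.1, no filter, FPKM as deposited, quantile normalization, GC trend removed, all 4 groups in the fit and leaving out each library.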

Additional observations from a re-analysis of the deposited data

Results flagged for a closer look

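Within each group of 5 libraries, a highest or lowest value was marked if its gap to the next, divided by the range, exceeded 0.71, Dixon's limit. Of 128 sets of a tested collagen gene and a group 18 were marked, and 10 of the 18 were high values in AF vehicle library 8. The limit marks about 1 in 20 sets of independent normal values. Values here were not put on a log scale and the sets share libraries, so that rate cannot show an excess. There Col1a1 was at 1964 scaled FPKM (next 514), Col1a2 at 2285 (next 632), Col2a1 at 1192 (next 361) and Col11a1 at 141 (next 51.0). Col6a1 was at 427 (next 235), Col6a2 at 407 (next 216), Col10a1 at 135 (next 35.6), Col9a1 at 16.3 (next 2.91), Col15a1 at 72.0 (next 43.0) and Col18a1 at 15.8 (next 6.94). This library holds fibrillar, FACIT, type VI and multiplexin genes high together.

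NP vehicle library 1 was high for Col2a1 (231, next 128), Col6a1 (308, next 217) and Col15a1 (151, next 65.8). Other single values were Col3a1 at 29.0 in NP vehicle library 2 (next 3.97), Col6a5 at 0.3035 in NP vehicle library 3 (next 0.0722), Col23a1 at 1.16 in NP MDL-800 library 19 (next 0.455) and Col24a1 at 0.669 in NP MDL-800 library 22 (next 0.0807). A low value was Col14a1 at 11.2 in AF vehicle library 9 (next 29.9).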

How the results depend on the processing

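The counts of collagen genes lower in NP were 18 to 25 in vehicle and 18 to 28 in MDL-800 libraries over all alternatives, against 19 and 22 of 32. The alternative with no filter counted over all 44 members, and 6 members below the filter were lower in each treatment. Leaving out 1 library gave 19 to 20 and 21 to 26. Counts of 0 higher became 1 in vehicle with quantile normalization (Col4a5) and 1 in MDL-800 libraries with no filter (Col17a1), with quantile normalization (Col5a3, 0.80) and with the replicate block (Col5a3, 0.74). MDL-800 calls stayed at 0 in NP, in AF and for their difference in all alternatives, with unadjusted p below 0.05 for 5, 4 and 2 members by limma. No called member reversed sign in any alternative. Quantile normalization moved the median of all genes by 0.27 between tissues and GC trend removal by 0.12 and 0.11.

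The block, chosen after seeing the data, used numbers that NP and AF column headers share. Same-numbered libraries correlated at 0.079, 0.016, 0.176, -0.178 and 0.285 (vehicle) and 0.012, -0.176 and 0.170 (MDL-800), not all above 0.1, so the numbers were not taken as pairs; whether they mark the same animal is not given in the sources used here. With it, Col11a1 (adjusted p 0.0595), Col11a2 (0.418), Col9a1 (0.176) and Col9a3 (0.0780) had no call in MDL-800 libraries. There only numbers 36, 37 and 39 are shared, and the other MDL-800 libraries add nothing to the tissue contrast of that fit. It thus rests on fewer libraries than the main fit. Depth limits the members below 1 FPKM.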
